A study of Mus musculus with 2 samples.

Results

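The genes described here are the apolipoproteins, lipases and lipoprotein receptors of mouse liver. They were chosen by name, as a list of 34 genes, with earlier results of these data known. Of the 34, 33 had a probe set with a single gene symbol in the platform annotation, out of 18193 genes named on the array. The other gene, Lipc (hepatic lipase), is not analysed here. A probe set is a group of short probes for the same transcript, and the 33 genes were read by 65 probe sets.

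Lipoproteins carry triglyceride and cholesterol through the blood. The liver loads triglyceride onto apolipoprotein B with the microsomal transfer protein and secretes very low density lipoprotein (VLDL). Lipases on capillary walls release the fatty acids, helped or restrained by apolipoproteins on the particle, and hepatic receptors take up what remains. High density lipoprotein (HDL) forms when apolipoprotein A-I accepts cholesterol from the transporter ABCA1, matures through the enzyme LCAT and returns cholesterol to the liver through the receptor SR-BI. Hepatocytes are the main source of most of these apolipoproteins.

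The samples were livers of C57BL/6J mice, 2 months old, that had been injected through the tail vein with adenovirus at 1000000000 plaque-forming units per mouse. The Ad-control group (4 mice) received the empty vector and the Ad-PDK4 group (3 mice) a vector for PDK4, the kinase that inactivates pyruvate dehydrogenase, and livers were taken at day 3, so that both groups carried adenovirus and neither was uninfected. Livers of a group were pooled before labelling, giving 1 array per group. No difference therefore has a replicate check, no p-value was computed, and the spread between mice is unknown.

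Signals are linear intensities in arbitrary units. Each array was given a floor at its median non-control signal, 93.4 for Ad-control and 99.9 for Ad-PDK4, and 10389 genes exceeded both floors. Differences are log2 signal of Ad-PDK4 minus Ad-control, centred on the median of the probe sets above the floor on both arrays, for the brightest probe set of each gene. Probe sets of the same gene disagreed with a pooled SD of 0.35 on the log2 scale over 4326 genes, which leaves out error shared by an array or a pool. Pdk4 itself gave a signal of 234 in the Ad-control pool and 177 in the Ad-PDK4 pool, so its level goes against the label. Whether that probe set reads the vector's transcript is not known here. The names Ad-control pool and Ad-PDK4 pool therefore mean the arrays labelled so, and every direction below rests on those labels. All 18 probe sets of the hybridization controls and 22 of 24 of the poly-A controls were dimmer on the Ad-PDK4 array, with median differences of -0.26 and -0.54, and against those references every difference measured on both arrays would be higher by the same amount. All 8 hepatocyte markers exceeded both floors, among them albumin (Alb; 97338 and 101771).

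Most lipoprotein genes gave bright signals that were close to each other in the pools. Of the 33 genes, 31 exceeded both floors, Lrp5 only that of the Ad-control array, and the brightest probe set of Lrp2 neither. Brightness depends on the probes as well as on the transcript, so the following places are descriptions of probe sets. In 11 genes the probe set lay at or above the 99th percentile of its array in both pools. Sorted into 4 brightness classes of equal size, 22 of the 31 measured genes fell into the brightest class (mean signal from 1756).

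**Figure D1:**
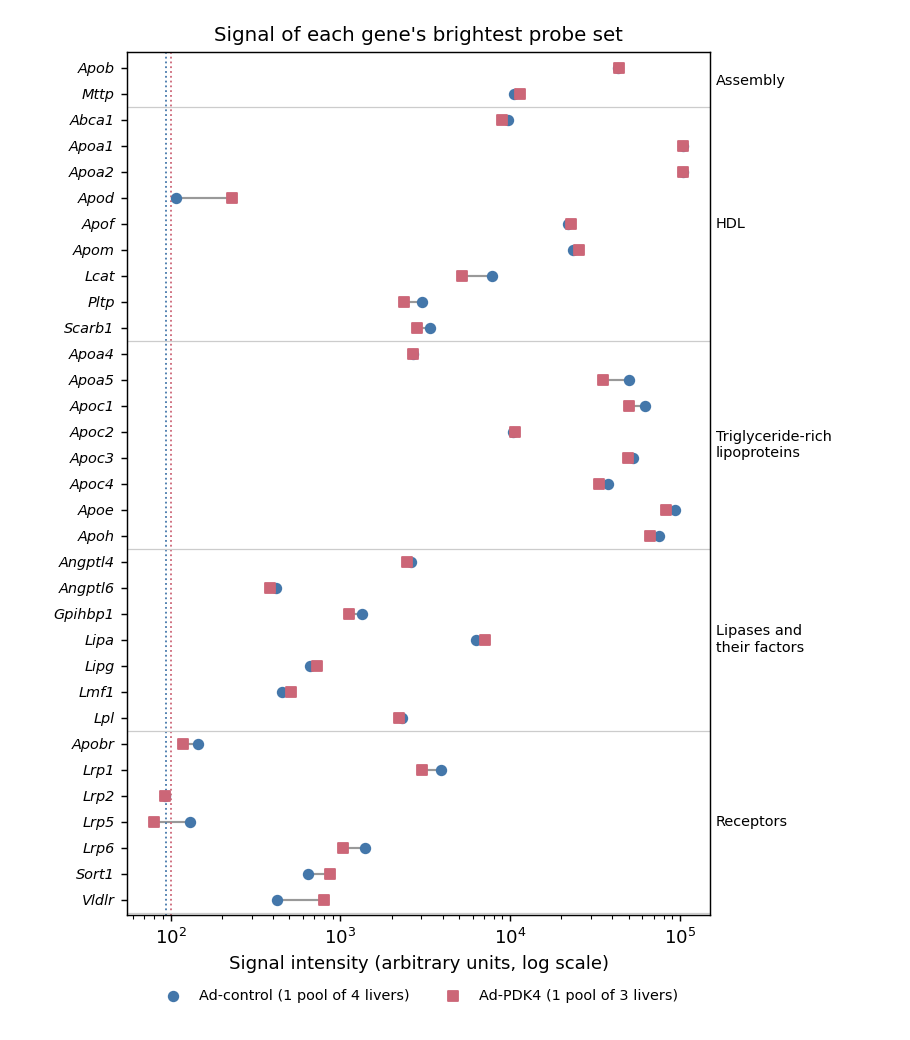
Signal intensity (log axis, arbitrary units) of the brightest probe set of each of the 33 genes on the Ad-control array (circles) and the Ad-PDK4 array (squares), grouped by role; dotted lines mark the floors of 93.4 and 99.9. Most pairs of symbols nearly coincide, and Apod, Vldlr, Lcat and Apoa5 are among those set apart; only Lrp2 and, in the Ad-PDK4 pool, Lrp5 lie under the floor.

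Counted by size, 2 of the 31 genes measured on both arrays (6.45%) were at least 1.5-fold higher in the Ad-PDK4 pool, against 9.21% of all 10389 genes. None (0) was at least 1.5-fold lower, against 5.2% of all genes. A lower threshold was set at a log2 difference of 0.32. Past it, 3 genes were higher (9.68%; all genes 21.7%) and 5 lower (16.1%; all genes 16.5%). The 23 others (74.2%) lay within 0.32 of 0, against 61.8% of all genes. The 2 genes past 1.5-fold were Apod and Vldlr, and Sort1 was the third past 0.32. On the lower side were Lcat, Apoa5, Lrp6, Lrp1 and Pltp. The median over the 31 genes was -0.066, and that over all measured genes 0.015. Of the 31, 17 (54.8%) lay below 0, against 48.4% of all genes, and relative to the poly-A controls 16 of these 17, all but Lcat, lay above 0. Bright genes leaned the same way in general, since 57.9% of the 2597 genes of the brightest class lay below 0, and 13 of the 22 lipoprotein genes in it did. In that class 10.1% of genes were higher and 14.2% lower past 0.32. The 9.68% and 16.1% are shares of all 31 lipoprotein genes, not of the 22 in that class. Apod, Vldlr and Sort1, the 3 higher genes, lay in dimmer classes. Of the lower genes, Lcat, Apoa5, Lrp1 and Pltp lay in the brightest class and Lrp6 did not.

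**Figure D2:**
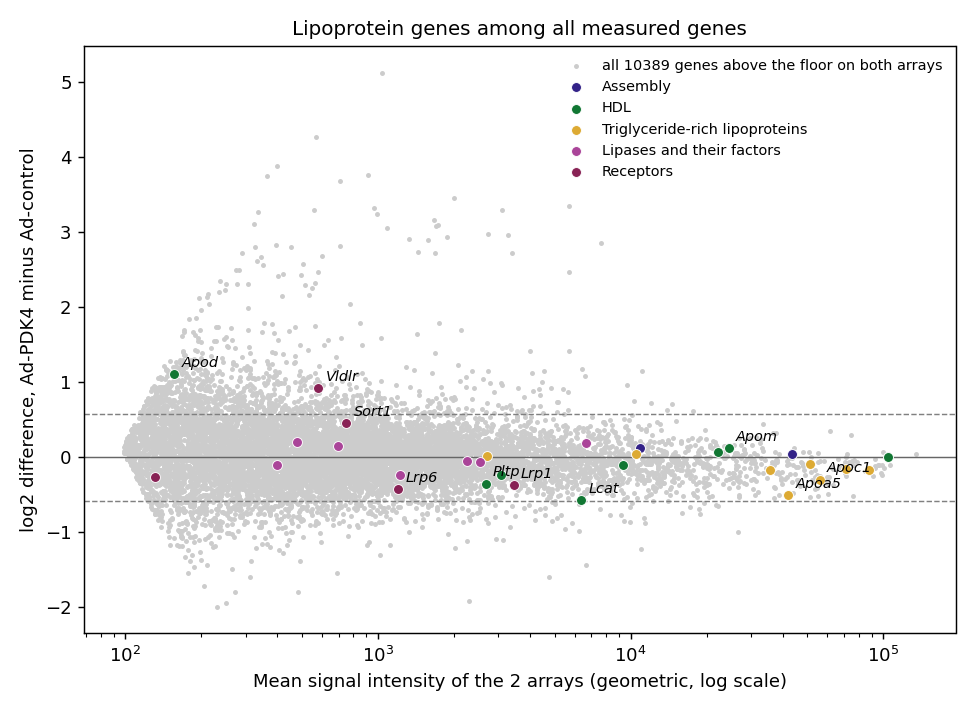
Log2 difference (Ad-PDK4 minus Ad-control) against mean signal (log axis) for all 10389 genes above the floor on both arrays (grey) and the 31 lipoprotein genes measured there (coloured by role); dashed lines mark 1.5-fold. The grey cloud is wider among dim genes (SD 0.54 in the dimmest class, 0.35 in the brightest); of the lipoprotein genes, Apod and Vldlr lie outside the dashed lines.

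Apob and Mttp, which start VLDL assembly, were nearly level between the pools on their brightest probe sets. Apob, the structural protein of VLDL and low density lipoprotein, had a signal of 43254 in the Ad-control pool and 44026 in the Ad-PDK4 pool, a log2 difference of 0.040. Its second, much dimmer probe set went from 706 to 504, a difference of -0.47, so the probe sets of Apob do not share a direction. Mttp, the large subunit of the microsomal triglyceride transfer protein, gave 10505 and 11371 (0.13). A second Mttp probe set gave 5706 and 6659 (0.24). Both Mttp values were slightly higher in the Ad-PDK4 pool and smaller than the probe set SD of 0.35.

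Among HDL genes Apoa1, Apoa2, Apom and Apof were nearly level, the enzyme Lcat was the lowest of the 31 genes measured and Apod the highest. Apoa1, the main HDL protein, had 4 probe sets with signals of 92995 to 104464 in the Ad-control pool and 87900 to 104110 in the Ad-PDK4 pool. Their differences ran from -0.10 to 0.0097. Apoa2, the second HDL protein, gave 104681 and 103892 (0.0036). These probe sets were above the 99th percentile in both pools, and whether such bright signals were limited by the scanner was not tested. Apom, which carries sphingosine-1-phosphate on HDL, gave 23508 and 25351 (0.12), and its second probe set 0.12 as well. Apof, a minor HDL protein, gave 21796 and 22689 (0.072).

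Lcat, which esterifies cholesterol on HDL, had a signal of 7794 in the Ad-control pool and 5201 in the Ad-PDK4 pool. This is a log2 difference of -0.57, or 1.48-fold lower, on its only probe set. It exceeds the probe set SD, and 81 of the 2597 genes of the brightest class (3.12%) were as low or lower. Pltp, the phospholipid transfer protein that remodels HDL, gave 3023 and 2352 (-0.35). Its second probe set gave 648 and 432 (-0.57), so both were lower by more than 0.32. The cholesterol transporter Abca1 showed no shared direction, with differences of -0.097, 0.020 and 0.24 over its 3 probe sets. For Scarb1, the gene of SR-BI, the 3 probe sets gave -0.23, -0.092 and -0.077, all slightly below 0.

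Apod, a lipocalin that binds small lipids and is a minor HDL component, had the largest difference among the 31 genes. Its signal was 107 in the Ad-control pool, close to the floor, and 229 in the Ad-PDK4 pool, a log2 difference of 1.11 or 2.16-fold higher. Of the 2598 genes in the dimmest class, 91 (3.5%) were as high or higher. Its second probe set was under both floors, and when only signals above the 70th percentile were kept Apod had no value.

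The apolipoproteins of triglyceride-rich particles leaned below the array median, with 6 of 8 below 0 and a median of -0.16, although relative to the poly-A controls all 8 lay above 0. The 6 below 0 were all at or above the 99th percentile on both arrays, where 76.4% of all genes lay below 0. Apoc2 and Apoa4 were dimmer than that and lay above 0 on their brightest probe sets. Of all 11 lipoprotein genes at or above the 99th percentile on both arrays, 6 lay below 0. Apoa5, which promotes lipolysis of these particles, was the lowest of the 8. It had a signal of 50359.5 in the Ad-control pool and 35234 in the Ad-PDK4 pool, a log2 difference of -0.50, or 1.41-fold lower, on its only probe set. Among the 233 genes at or above the 99th percentile on both arrays, where differences had an SD of 0.18 and a median of -0.12, 7 were as low as Apoa5 or lower. Apoc1, an inhibitor of lipoprotein uptake, gave 62478 and 50377 (-0.30), and 43 of those 233 genes were as low or lower. The remaining members were closer to 0.

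Apoe, the ligand of remnant receptors, gave 93381 and 82227 (-0.17). Apoc4 gave 37932 and 33339 (-0.17). Apoc3, which slows lipolysis and remnant uptake, gave 53176 and 49505 (-0.089). Apoc2, the activator of lipoprotein lipase, gave 10411 and 10690 (0.053), on the other side of 0 from its neighbours. Apoh (beta-2-glycoprotein I), which binds anionic phospholipid, gave 75143 and 66974 (-0.15), and its dim second probe set 0.19. For Apoa4, a protein of triglyceride-rich particles and HDL, the brighter probe set gave 2691 and 2692 (0.015) and the other 1189 and 980.0 (-0.26). Of the hepatocyte markers 6 of 8 (75%) were below 0, against 57.9% of the brightest class and 76.4% of genes at or above the 99th percentile. Alb, Cps1, Hpd and Cyp2e1 were among those in that brighter range, and Ass1 (314 and 275) was dimmer than the brightest class. The 75% is near the share of genes at or above the 99th percentile, but the markers were not all that bright. The 8 markers had a median of -0.20 and a summed signal of 372366 in the Ad-control pool and 332659 in the Ad-PDK4 pool. In pooled tissue fewer cells of a type and less RNA per cell cannot be told apart, and the part of hepatocyte content in these differences was not tested.

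Several of these genes lie next to each other. In the RefSeq gene table (GRCm38.p6) Apoa1, Apoc3, Apoa4 and Apoa5 are neighbours on chromosome 9, and Apoc2, Apoc4, Apoc1 and Apoe on chromosome 7. Within the chromosome 9 cluster Apoa5 (-0.50) stood apart from Apoc3 (-0.089), Apoa1 (0.0097) and Apoa4 (0.015) on their brightest probe sets. Those of Apoa1 and Apoa4 are _x_at probe sets, whose probes can match other transcripts. Without _x_at and _s_at probe sets Apoa1 gave -0.10 and Apoa4 -0.26. If the pooled probe set SD of 0.35 is taken for each value, these gaps are not clearly larger than that error. That SD covers genes of all brightnesses, whereas differences of genes at or above the 99th percentile had an SD of 0.18. Whether 0.35 holds for Apoa5, Apoc3 and Apoa1, which are that bright, was not tested. In the chromosome 7 cluster the values ran from Apoc1 (-0.30) to Apoc2 (0.053), a range within the pooled SD of 0.35, with a median of -0.17. Apoc1, Apoe and Apoc4 are also at or above the 99th percentile, where the SD was 0.18. Whether 0.35 holds for them was likewise not tested.

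The start-site regions of Apoa5, of its neighbours Apoa1 and Apoa4 and of Lcat are shown because Lcat and Apoa5 were the lowest of the 31 genes and these neighbours of Apoa5 were nearly level on their brightest probe sets. Each is 250 bases before and 50 after a RefSeq start site (GRCm38.p6), written 5′ to 3′ along the gene. They lie at chr9:46268358-46268657 (+ strand, Apoa5; the first of 2 overlapping windows listed), chr9:46228380-46228679 (+, Apoa1), chr9:46240594-46240893 (+, Apoa4) and chr8:105943353-105943652 (- strand, Lcat). Capitals mark letter matches on either strand. The letters searched were TATAAA for the core promoter box and CACGTG for the E-box read by helix-loop-helix factors. For nuclear receptors the half-sites AGGTCA (the common form) and its variant GGGTCA were searched. The sites searched for HNF4A, a hepatocyte nuclear receptor, were CAAAGTCCA and, as its variant, CAAAGTTCA. For the forkhead factors of the FOXA family they were TGTTTGC and, as its variant, TGTTTAC.
Apoa5: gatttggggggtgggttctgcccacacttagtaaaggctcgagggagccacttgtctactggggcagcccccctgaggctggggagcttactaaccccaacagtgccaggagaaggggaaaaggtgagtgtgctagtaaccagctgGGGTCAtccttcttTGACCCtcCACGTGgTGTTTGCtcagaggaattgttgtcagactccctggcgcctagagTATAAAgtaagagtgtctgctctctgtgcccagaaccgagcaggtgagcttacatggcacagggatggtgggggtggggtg
Apoa1: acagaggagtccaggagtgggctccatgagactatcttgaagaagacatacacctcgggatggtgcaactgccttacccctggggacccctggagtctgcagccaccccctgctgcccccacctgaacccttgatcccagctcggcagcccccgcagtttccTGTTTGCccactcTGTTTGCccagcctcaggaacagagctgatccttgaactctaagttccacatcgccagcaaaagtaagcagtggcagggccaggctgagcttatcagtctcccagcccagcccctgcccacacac
Apoa4: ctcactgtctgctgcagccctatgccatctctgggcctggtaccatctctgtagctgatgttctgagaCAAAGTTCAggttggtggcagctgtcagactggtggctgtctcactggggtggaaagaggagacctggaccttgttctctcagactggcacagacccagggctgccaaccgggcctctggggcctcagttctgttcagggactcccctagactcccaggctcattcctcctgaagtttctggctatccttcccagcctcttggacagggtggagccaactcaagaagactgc
Lcat: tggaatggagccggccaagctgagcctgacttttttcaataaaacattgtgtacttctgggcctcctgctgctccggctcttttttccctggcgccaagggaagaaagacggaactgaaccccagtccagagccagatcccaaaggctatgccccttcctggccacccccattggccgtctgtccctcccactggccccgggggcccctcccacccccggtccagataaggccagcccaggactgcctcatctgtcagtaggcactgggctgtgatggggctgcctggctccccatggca

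The Apoa5 window held 5 matches. They were a core promoter box starting 31 bases before the start site, a forkhead match (TGTTTGC) at 75, an E-box at 82 and a pair of GGGTCA half-sites at 104 and 90 in opposite orientation. The Apoa1 window held the same forkhead match at 88 and 75 bases before the start, the Apoa4 window the HNF4A variant CAAAGTTCA at 182, and the Lcat window no match (0). No matches overlapped. Over all 32851 promoter windows of this length, the core promoter box was found in 13.6% and the E-box in 7.15%. The half-site AGGTCA was found in 16.3% of the windows and GGGTCA in 13.7%. The HNF4A site was found in 0.475% and its variant in 0.39%, the forkhead site TGTTTGC in 5.07% and its variant in 3.65%. Windows were listed for 23 of the 34 genes, Lipc included. Of these genes 7 held the core promoter box, 2 the E-box, 5 the common half-site and 4 its variant. The HNF4A site was in 0 and its variant in 1, and each forkhead site in 3. A gene can have more than 1 window, so the shares above compare with counts of windows. Of the 29 windows of these genes, 8 held the core promoter box, 3 the E-box, 5 AGGTCA and 5 GGGTCA. The HNF4A site was in 0 windows and its variant in 1, TGTTTGC in 4 and TGTTTAC in 3. A match describes these letters only. The motifs were picked with the sequences in view.

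The 7 lipases and lipase factors measured all lay within 0.32 of 0 on their brightest probe sets. Lpl, lipoprotein lipase, gave 2312 in the Ad-control pool and 2212 in the Ad-PDK4 pool, a log2 difference of -0.049. Its second probe set went from 684 to 448, a difference of -0.60, well below the near-zero value of the brighter one. Lpl is made mainly in fat and muscle, and some markers of these tissues differed between the pools. All 5 skeletal muscle markers were below 0, with a summed signal of 3124 in the Ad-control pool and 1694 in the Ad-PDK4 pool. Of 6 adipocyte markers 4 were matched, and the sum of the 4 went from 439 to 674. Most of that rise was Cidec, which went from 73.1, under the floor, to 237. Above the floor on both arrays were 2, Adipoq (193 and 207, 0.12) and Retn (0.50), and Lep was under both floors. No marker with a value in either list was at 0, and their part in the Lpl signal was not tested.

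Gpihbp1, which anchors lipoprotein lipase to capillary endothelium, gave 1332 and 1119 (-0.24). Markers of sinusoidal endothelium had 5 of 7 below 0, a median of -0.087 and summed signals of 14710 and 13014, and their part in this value was not tested. Lmf1, the chaperone that matures lipases in the endoplasmic reticulum, gave 450 and 513 (0.20). Angptl4, a secreted inhibitor of lipoprotein lipase, gave 2598 and 2457 (-0.066). Angptl6, a related secreted protein, gave 416 and 385 (-0.0997). Neither of these genes differed by more than the probe set SD.

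The endothelial and lysosomal lipases were both slightly higher in the Ad-PDK4 pool. Lipg, endothelial lipase, which acts on HDL phospholipid, gave 664 and 729 (0.15). Its second measured probe set gave 272 and 421 (0.64), and a further one was under the floor. Lipa, lysosomal acid lipase, which breaks down the lipid of lipoproteins taken up by receptors, gave 6263 and 7096 (0.19). The other Lipa probe sets gave 0.26 and 0.40, so all 3 pointed up. Of these values, only the highest of Lipg (0.64) and of Lipa (0.40) exceeded the pooled probe set SD of 0.35, that of Lipa narrowly.

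Of the 5 genes grouped as receptors and measured on both arrays, 4 lay more than 0.32 from 0. Sort1 and Vldlr were higher and Lrp1 and Lrp6 lower in the Ad-PDK4 pool. Past 0.32, 21.7% of all genes were higher and 16.5% lower. Scarb1, also a receptor, was grouped with the HDL genes and is not among the 5. All of its probe sets lay within 0.32 of 0. As medians over probe sets, Vldlr was at -0.16 and Lrp6 at 0.12, so both changed sign. Lrp1, a receptor for remnant particles in hepatocytes, gave 3938 in the Ad-control pool and 3026 in the Ad-PDK4 pool, a log2 difference of -0.37. Its second probe set gave 736 and 504 (-0.53), in the same direction. In the brightest class 283 of 2597 genes (10.9%) were as low as Lrp1 or lower. Lrp6, a co-receptor for Wnt, gave 1398 and 1030 (-0.43). Its dim second probe set gave 101 and 160.0 (0.67), and the median over both was 0.12, so the direction of Lrp6 is not settled.

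Sort1, sortilin, a sorting receptor that binds apolipoprotein B in the Golgi, was higher on all of its probe sets. The brightest gave 643 in the Ad-control pool and 873 in the Ad-PDK4 pool, a log2 difference of 0.46 or 1.37-fold. The other Sort1 probe sets gave 104 and 159 (0.62) and 137 and 303 (1.16). In its brightness class 230 of 2597 genes (8.86%) were as high or higher. Sort1 was the only receptor with more than 1 measured probe set of which all were above 0.

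Vldlr, the VLDL receptor, gave 424 and 796 on its brightest probe set, a log2 difference of 0.92 or 1.90-fold. That probe set is of the kind (_x_at) whose probes can match other transcripts. The other measured Vldlr probe sets gave 205 and 170 (-0.26) and 119 and 105 (-0.16), and 3 more were under both floors. The direction of Vldlr therefore turns with the probe set, and it was -0.26 without probe sets of that kind.

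The other genes grouped as receptors were near the floor. Apobr, a macrophage receptor for apolipoprotein B48, gave 144 and 119 (-0.27). Lrp5, a Wnt co-receptor, gave 130 in the Ad-control pool and 79.6, under the floor, in the Ad-PDK4 pool, so it was at least 1.29-fold lower, a bound that is 0 on the log2 scale relative to the poly-A controls. Lrp2 (megalin), an endocytic receptor of kidney tubule, gave 93.0 and 92.8 on its brightest probe set, both under the floor. Another Lrp2 probe set gave 40.3 and 187, above the floor in the Ad-PDK4 pool alone. That probe set was higher by at least 1.02 on the log2 scale, a bound that does not enter the counts. Of the 3 kidney tubule markers none (0) was above the floor on both arrays.

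**Figure D3:**
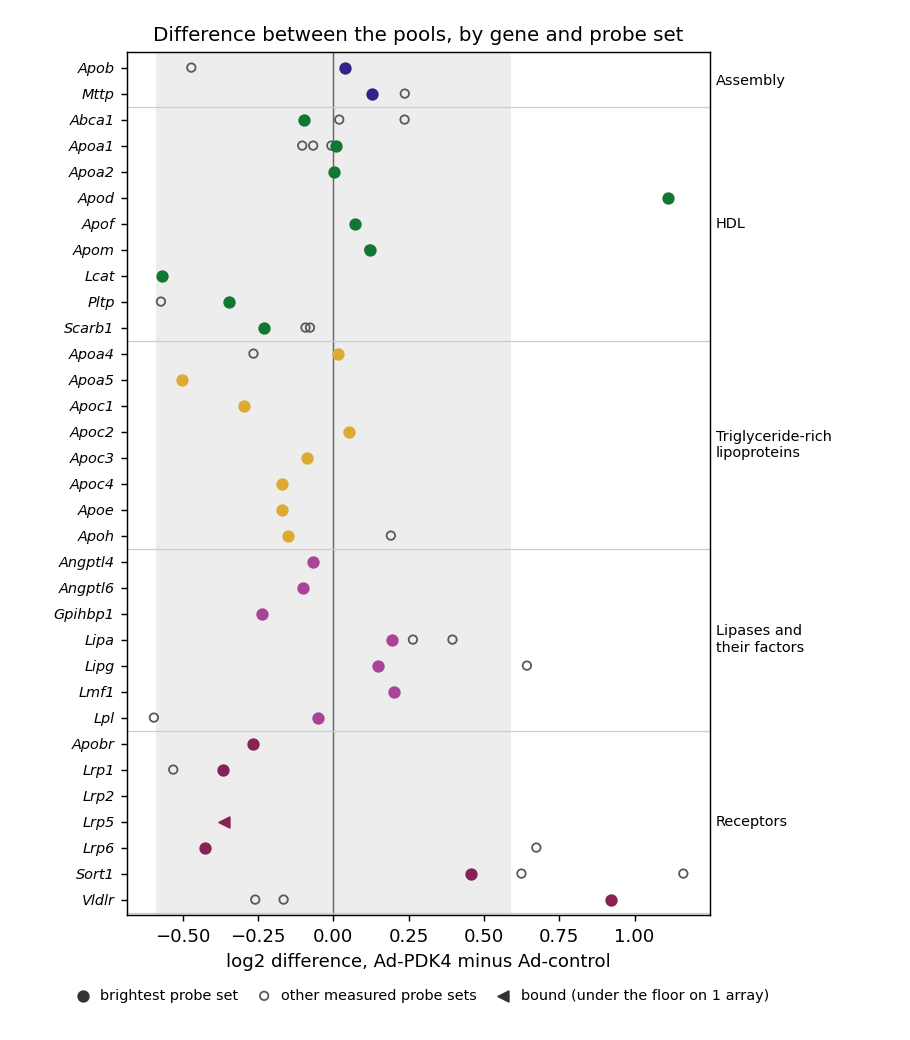
Log2 difference (Ad-PDK4 minus Ad-control) of each gene by role: filled circles are the brightest probe set, open circles the other probe sets above the floor on both arrays, the triangle the bound for Lrp5, and the grey band spans 1.5-fold either way. Probe sets of Sort1, Lipa, Pltp and Lrp1 lie on 1 side of 0, whereas those of Vldlr, Lrp6 and Apob lie on both sides; Lrp2 has no value.

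Agreement between probe sets could be read in 16 genes with more than 1 measured probe set. In 7 of them the probe sets lay on both sides of 0, namely Abca1, Apoa1, Apoa4, Apob, Apoh, Lrp6 and Vldlr. In the others all measured probe sets had the same sign. Those below 0 throughout were Lpl, Lrp1, Pltp and Scarb1, and those above were Apom, Lipa, Lipg, Mttp and Sort1. Lcat and Apoa5 had only 1 probe set each and could not be checked in this way.

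Lipoprotein genes outside the list were read from a second list of 63 names, of which 56 had a named probe set and 48 exceeded both floors. In the Ad-PDK4 pool 6 of the 48 (12.5%) were higher by 1.5-fold or more, against 9.21% of all genes. Lower by 1.5-fold or more were 2 (4.17%), against 5.2%. The median over the 48 was -0.037. The lowest was Angptl8, a feeding-induced secreted protein that restrains lipoprotein lipase with its partner, with 3333 in the Ad-control pool and 1523 in the Ad-PDK4 pool. This is a log2 difference of -1.12, or 2.17-fold lower, on 1 probe set. Mylip, the ubiquitin ligase IDOL that degrades receptors of the low density lipoprotein receptor family, gave 1158 and 604 (-0.92, 1.90-fold lower). Both lay further from 0 than any of the 31 genes on the lower side. Tm6sf2, needed to load lipid onto VLDL, gave 515 and 348 (-0.55). Nr5a2, a nuclear receptor of sterol metabolism, gave 2392 and 1740.1 (-0.44), with other probe sets up to -0.053.

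On the higher side, Pcsk5, a proprotein convertase that cleaves lipases, gave 232 and 481 (1.07). Its other measured probe set gave -0.097, so the direction of Pcsk5 is not settled. Cd36, a scavenger receptor and fatty acid transporter, gave 2190.3 and 4314 (0.99), with its lowest probe set at 0.31. Saa1, an acute phase protein carried on HDL, gave 4028 and 6654 (0.74), and Saa2 gave 0.71 on its only measured probe set. That Saa2 probe set is of the _x_at kind, so it may read other transcripts, and Saa2 had no value without _x_at and _s_at probe sets. A1cf, a cofactor of apolipoprotein B mRNA editing, gave 730 and 1191 (0.72). Mia2, an export factor of the endoplasmic reticulum, was 1.65-fold higher (0.72). Chosen after their values were seen, the paired sterol transporters Abcg5 and Abcg8 gave -0.44 and -0.39. The editing enzyme Apobec1 was level (-0.086), as were the nuclear receptors Ppara (-0.032) and Nr1h3 (0.0397).

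**Figure D4:**
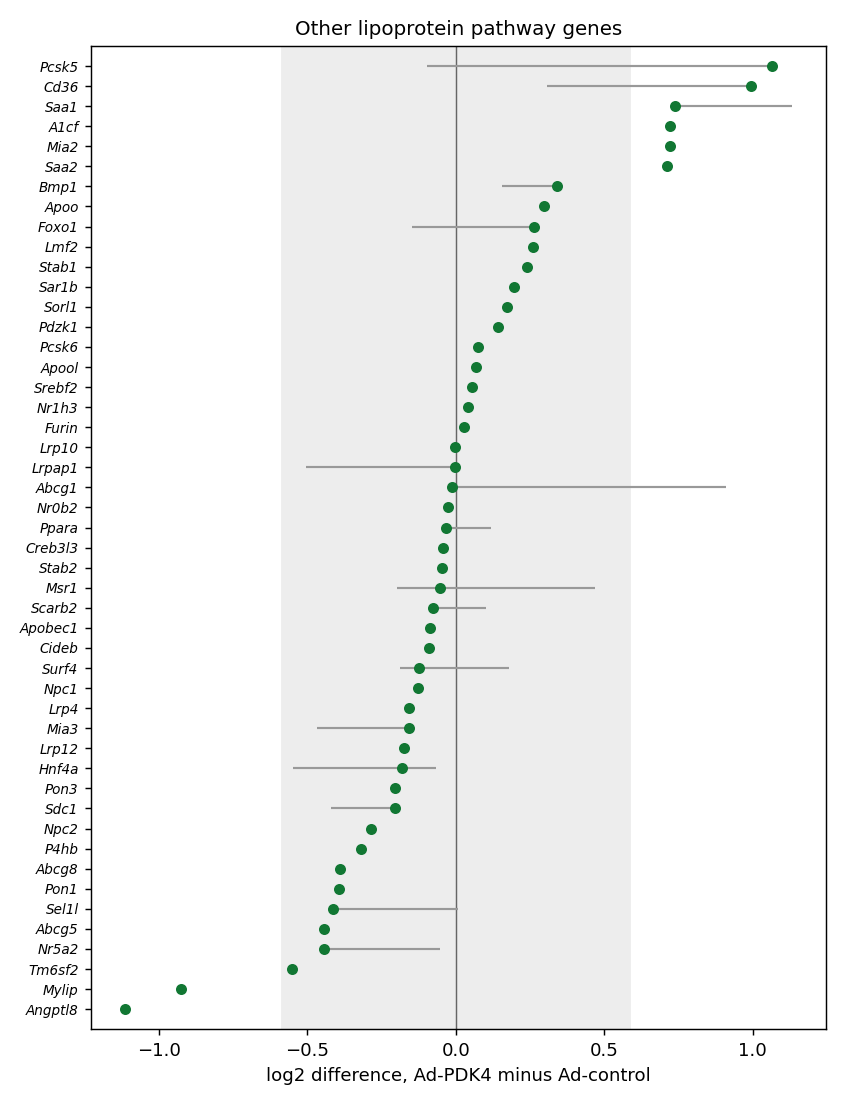
Log2 difference (Ad-PDK4 minus Ad-control) of the 48 other lipoprotein pathway genes above the floor on both arrays, sorted; points are the brightest probe set, lines span the measured probe sets of a gene, and the grey band marks 1.5-fold. Angptl8 and Mylip lie below the band, and Pcsk5, Cd36, Saa1, A1cf, Mia2 and Saa2 above it, with the line of Pcsk5 crossing 0.

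Markers of other cells differed between the pools in ways that touch the whole tissue. All 7 measured markers of pancreatic acinar cells were higher in the Ad-PDK4 pool (median 2.98), with summed signals of 8808 and 69199. Of the Kupffer cell and macrophage markers, 3 of the 6 measured on both arrays were below 0, namely Vsig4 (-1.19), Clec4f (-1.13) and Csf1r (-0.13). The other 3 were above 0, namely Cd68 (0.37), Adgre1 (0.21) and Cd5l (0.10). The stellate cell and fibroblast markers had a median of -0.11. Their part in the values of the lipoprotein genes was not tested.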

How the data were processed

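Per the labels, biotin-labelled cRNA was made by the Affymetrix procedure from 10 ug RNA of each pool. The deposited table holds 1 linear signal intensity for each of 45101 probe sets, but the software and summary method behind it were not stated in the labels. Trimmed by 2% at each end, the mean is 500.0 on either array. After 64 control probe sets were set aside, 34945 of 45037 named a gene. All 33 symbols were checked against RefSeq by Entrez identifier. The number of arrays limits the precision.

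Floors, median centring (shift -0.015), bounds and counts were computed with pandas 2.3.3 and numpy 2.4.6 and tested on simulated data. A gene under the floor on 1 array was compared with that array's floor. Genes, lists, motifs and roles were chosen with earlier results of these data known. All 34 genes are accounted for; from the second list the 4 highest, 4 lowest and all genes past 1.5-fold are named. Alternatives were other floors (30th and 70th percentile), centrings and probe set rules.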

Additional observations from a re-analysis of the deposited data

How the results depend on the processing

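The median over lipoprotein genes above at least 1 floor (-0.077) ran from -0.0997 to -0.027 under the 7 alternatives other than spike-in centring. With the floor at the 30th percentile 1 gene (Lrp5) was at least 1.5-fold lower, and with it at the 70th 1 gene (Vldlr) was that much higher. Without _x_at and _s_at probe sets 1 gene (Apod) was at least 1.5-fold higher, Vldlr gave -0.26 and Pcsk5 -0.097. As medians over probe sets, Vldlr gave -0.16 and Sort1 0.62. The spike-in centrings were chosen after seeing the data. Centred on hybridization controls, 3 of the lipoprotein genes were at least 1.5-fold higher. By 0.32 or more, 9 were higher and 0 lower, with the median of all genes at 0.27. Centred on poly-A controls, 10 were at least 1.5-fold higher, 22 higher by 0.32 or more and 0 lower by 0.32 or more, with a median of 0.47 against 0.56 over all genes, and 16 changed sign. The second list then had 17 genes higher by 1.5-fold, 0 lower and a median of 0.51. Of all genes, 46.7% were then at least 1.5-fold higher and 0.395% lower, and on hybridization controls 21.2% and 1.63%. The shares of all genes past 0.32 were not computed for these centrings. The counts of 9 and 22 therefore cannot be set against all genes. No paired analysis was possible because each group is 1 array. Dim genes are limited by the floor.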
